A study of Mus musculus with 12 samples.

Results

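The genes described are 36 acute phase and plasma protein genes, chosen by name, whose symbols were looked up in the platform annotation of the array. Of these, 35 had a probe set with a single symbol among the 19938 genes measured, and Il1r1, the signalling receptor of interleukin-1, was not analysed here. Livers came from 6 K289R mice and 6 wild-type (WT) mice, all male on the C57BL/6J background, killed 6 h into refeeding that followed a 24 h fast. The genotype label of WT 4 is malformed, and that array was grouped as WT by its title. K289R mice carry a knock-in of the gene for the nuclear receptor LRH-1 in which a lysine is replaced by an arginine at a site where the small protein SUMO is attached. The change is in the germline and so not limited to the liver, and the labels give no age. Each array measured 1 mouse, and the values are linear probe-set intensities, which show how one gene differs between arrays but give no comparison of levels between genes.

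The acute phase response is the change in plasma protein synthesis that the liver makes in inflammation or injury. Interleukin-6, acting through the transcription factor STAT3, and interleukin-1 and TNF, acting through NF-kB, raise the transcripts of the positive acute phase proteins together with C/EBP factors, whereas transcripts of negative acute phase proteins such as albumin fall. LRH-1 with SUMO attached has been described as keeping a corepressor complex on acute phase promoters, so this comparison asks whether these transcripts differ in refed livers in which the SUMO site is missing. In bulk liver, fewer cells of a type and less RNA per cell cannot be told apart.

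The promoters of the 6 members whose intensity ranged most widely over the 12 arrays are shown because these genes differ most between arrays. Each window runs from 250 bases before to 50 bases after the RefSeq start site of assembly GRCm38.p6, 5′ to 3′ on the gene's strand, and capitals mark matches to the motifs searched.
Lcn2, chr2:32387690-32387989, - strand: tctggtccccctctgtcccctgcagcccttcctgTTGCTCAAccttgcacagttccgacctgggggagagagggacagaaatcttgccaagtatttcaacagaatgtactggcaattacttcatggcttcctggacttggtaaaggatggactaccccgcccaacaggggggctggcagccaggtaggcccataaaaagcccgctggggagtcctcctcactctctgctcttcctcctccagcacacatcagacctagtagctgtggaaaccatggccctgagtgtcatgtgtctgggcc
Saa1, chr7:46742931-46743230, - strand: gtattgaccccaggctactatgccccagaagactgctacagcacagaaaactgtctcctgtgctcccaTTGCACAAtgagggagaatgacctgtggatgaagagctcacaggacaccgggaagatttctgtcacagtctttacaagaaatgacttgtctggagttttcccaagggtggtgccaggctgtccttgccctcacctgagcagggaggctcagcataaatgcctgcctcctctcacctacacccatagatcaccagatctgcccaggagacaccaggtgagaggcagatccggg
Saa2, chr7:46751583-46751882, + strand: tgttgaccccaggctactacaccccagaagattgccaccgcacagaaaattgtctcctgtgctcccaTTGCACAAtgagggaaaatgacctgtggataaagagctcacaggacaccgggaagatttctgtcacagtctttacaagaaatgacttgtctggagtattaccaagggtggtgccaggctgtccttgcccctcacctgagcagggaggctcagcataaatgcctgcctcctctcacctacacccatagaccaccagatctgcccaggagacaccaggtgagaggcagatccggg
Cxcl1, chr5:90890995-90891294, + strand: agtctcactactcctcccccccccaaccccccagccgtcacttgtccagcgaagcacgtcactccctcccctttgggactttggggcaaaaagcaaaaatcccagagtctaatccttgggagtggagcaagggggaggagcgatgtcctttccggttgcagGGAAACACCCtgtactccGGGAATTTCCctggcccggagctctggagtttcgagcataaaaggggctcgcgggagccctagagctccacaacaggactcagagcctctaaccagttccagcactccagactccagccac
Orm2, chr4:63362199-63362498, + strand: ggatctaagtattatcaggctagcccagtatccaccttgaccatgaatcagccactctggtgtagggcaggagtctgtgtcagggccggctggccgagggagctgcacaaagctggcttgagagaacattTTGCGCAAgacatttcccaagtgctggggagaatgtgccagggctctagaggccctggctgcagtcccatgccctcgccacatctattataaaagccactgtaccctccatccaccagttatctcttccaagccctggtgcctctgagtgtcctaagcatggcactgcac
Steap4, chr5:7960222-7960521, + strand: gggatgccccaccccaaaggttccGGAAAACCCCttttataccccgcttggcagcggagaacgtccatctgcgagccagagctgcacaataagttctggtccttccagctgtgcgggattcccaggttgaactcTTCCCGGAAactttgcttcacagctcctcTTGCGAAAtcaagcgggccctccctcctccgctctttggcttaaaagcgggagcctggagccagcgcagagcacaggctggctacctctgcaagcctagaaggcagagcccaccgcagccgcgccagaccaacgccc

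The letters searched, on both strands, were TTCNNNGAA for STAT factors, GGG and TTTCC separated by any 2 bases for NF-kB, TTGCNNAA for C/EBP factors, and CAAGGTCA or CAAGGCCA for LRH-1 and its relatives. RefSeq windows were at hand for 29 of the 36 members, 34 windows in all. The C/EBP letters stood in 17 of the 34 member windows, against 10.8% of all 32851 windows. They were not limited to positive acute phase genes, as the windows of Ahsg, Alb, Itih2 and the unmeasured Il1r1 were among the 17. Similar windows, such as those of Saa1 and Saa2, were counted separately. The NF-kB letters stood in 6 of the 34 (17.6%), against 1.63% of all windows, and these belonged to Cxcl1, Il1rn, Serpina3n, Steap4 and Tifa. Because 2 of the 6 are overlapping windows of Il1rn, this is 5 of the 29 member genes. The STAT letters stood in 5 (14.7%, against 8.30%), in the windows of Apcs, Fga, Fgb, Itih4 and Steap4. The LRH-1 letters stood in 1 member window, that of Itih2 (2.94%, against 3.92%). In the printed set Cxcl1 has 2 NF-kB matches, from -89 to -80 and from -71 to -62 bases relative to the start site, and Steap4 has an NF-kB, a STAT and a C/EBP match. Saa1 and Saa2 have a C/EBP match at nearly the same place, starting at -182 and -183, and their windows have 287 of 299 aligned bases in common (96.0%). No motif match overlapped another in these 6 windows. A match shows the letters only, and no binding was measured.

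**Figure D1:**
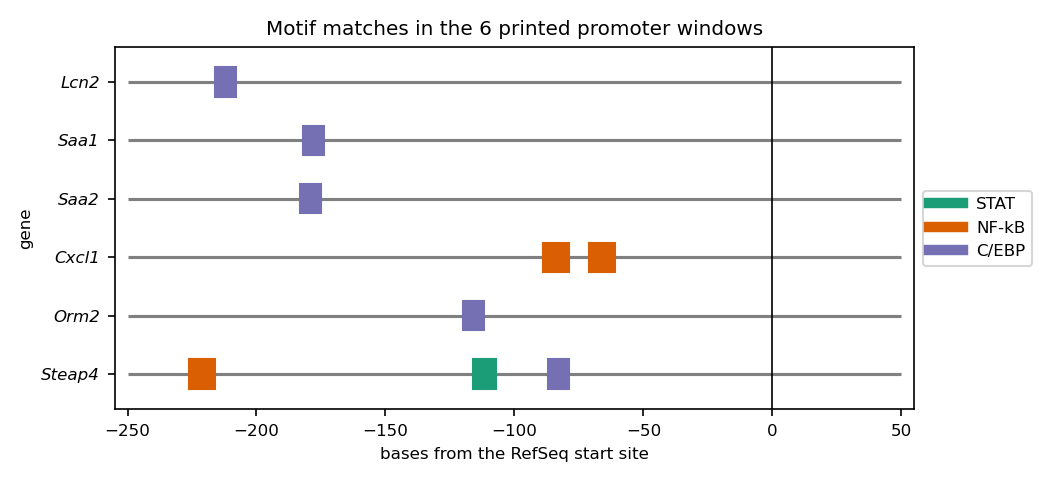
Positions of motif matches in the 6 printed promoter windows, in bases from the RefSeq start site, with 1 line per gene and a coloured box per match. C/EBP matches are present in 5 of the genes, and Cxcl1 has only the 2 NF-kB matches between -89 and -62.

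Many members sit side by side in the RefSeq order of protein-coding genes. Saa3, Saa4, Saa1 and Saa2 are consecutive on chromosome 7, Orm1, Orm3 and Orm2 on chromosome 4, and Fgg, Fga and Fgb on chromosome 3. Itih4, Itih3 and Itih1 are consecutive on chromosome 14, Crp and Apcs on chromosome 1, and S100a8 and S100a9 on chromosome 3. Saa1 and Saa2, and the Orm genes, are close paralogs, and probes of one may bind transcripts of another, so the values of each are uncertain to that degree.

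None of the 35 measured members changed between K289R and WT livers at an adjusted p under 0.05 (limma, Benjamini-Hochberg over all genes). The background share of genes called over the whole array was 0.572%, 114 of 19938 genes, and 0.0903% were called lower. The smallest adjusted p among the members was 0.184, for Lrg1, followed by 0.192 for Tifa. At an unadjusted p under 0.05 limma gave 5 of the 35 (14.3%), Lrg1, Tifa, Cxcl1, Orm2 and Serpina3n, against 12% of all genes, so the members' share was near the background. All 5 had lower values in K289R livers, a direction that 5.61% of all genes had at that threshold. The exact permutation test over arrays gave 4 members at an unadjusted p under 0.05 (Lrg1, Tifa, Cxcl1 and Fgg), against 11.7% of all genes.

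The log2 difference, K289R minus WT, was below 0 for 30 of the 35 members (85.7%), against 54% of all genes. The median log2 difference was -0.18 over the 35 members and -0.01 over all genes. With the array medians set equal, 29 of 35 members lay below 0, against 41.1% of all genes. No member's groups were separate, as K289R and WT arrays overlapped for all 35, whereas they did not overlap for 1.24% of all genes (all K289R arrays below all WT arrays for 0.391%).

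Arrays WT 1 and WT 3 held the highest values of most members. WT 1 or WT 3 was the highest of the 12 arrays for 27 of the 35 members (77.1%), against 19.6% of all genes. WT 1 and WT 3 were both above all the other 10 arrays for 24 members (68.6%), against 3.43% of all genes. These arrays were first seen to stand apart on acute phase genes, so the counts describe them and test nothing. Over the 28 positive acute phase members the median log2 deviation from each gene's 12-array median was 0.52 on WT 1 and 0.57 on WT 3. WT 2 was next at 0.12 within its group, and WT 4, WT 5 and WT 6 lay between -0.09 and -0.03. Among K289R arrays this value was highest on K289R 4, at 0.13, and lay between -0.14 and 0.01 on the other 5.

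**Figure D2:**
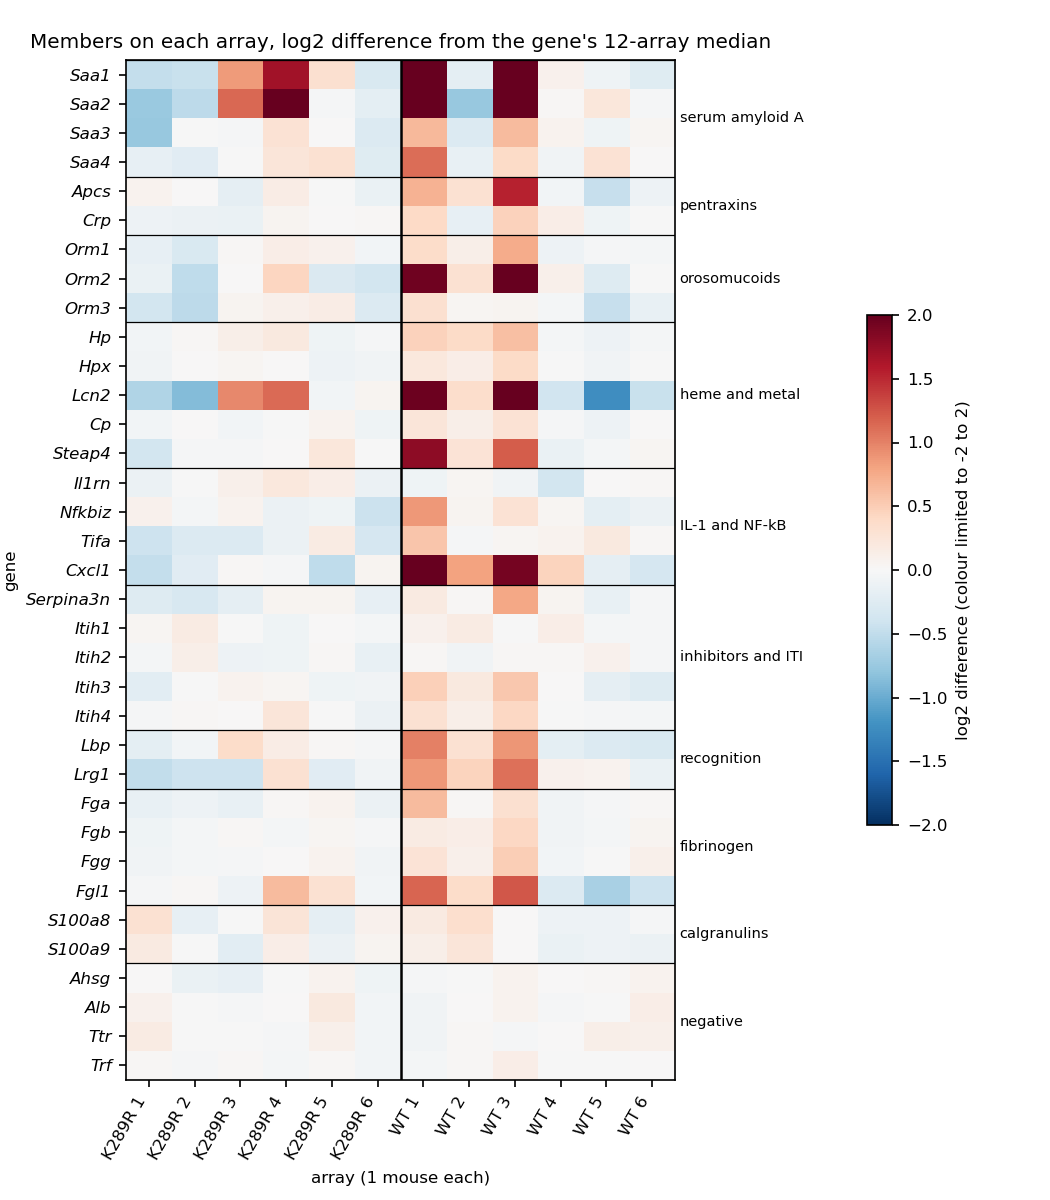
Log2 difference of each member (rows, grouped by role) from its own median over the 12 arrays (columns, K289R left of WT, 1 mouse each); red is above and blue below that median, with colour limited to -2 to 2. Red columns stand at WT 1 and WT 3 for most positive acute phase genes, and the rows of the 4 negative acute phase genes are nearly uncoloured.

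Without WT 1 and WT 3 the members' differences were centred near 0. WT 1 and WT 3 were left out because they were highest for most members, which by itself lowers the WT means of those members. The counts, intervals and p-values without them, here and for single members below, describe the remaining arrays and test nothing. The median over the 35 members was then -0.03, and 22 of 35 (62.9%) were below 0, against 53.4% of all genes. No member was called there, where 0.441% of all genes were, and 2 members, Tifa and Lrg1, had an unadjusted p under 0.05, against 10.7% of all genes. Without K289R 1 and K289R 3, the arrays that carried pancreatic acinar transcripts, no member was called either, where 75 of all 19938 genes were. There 32 of 35 members had a log2 difference below 0, against 52.1% of all genes, with WT 1 and WT 3 kept.

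**Figure D3:**
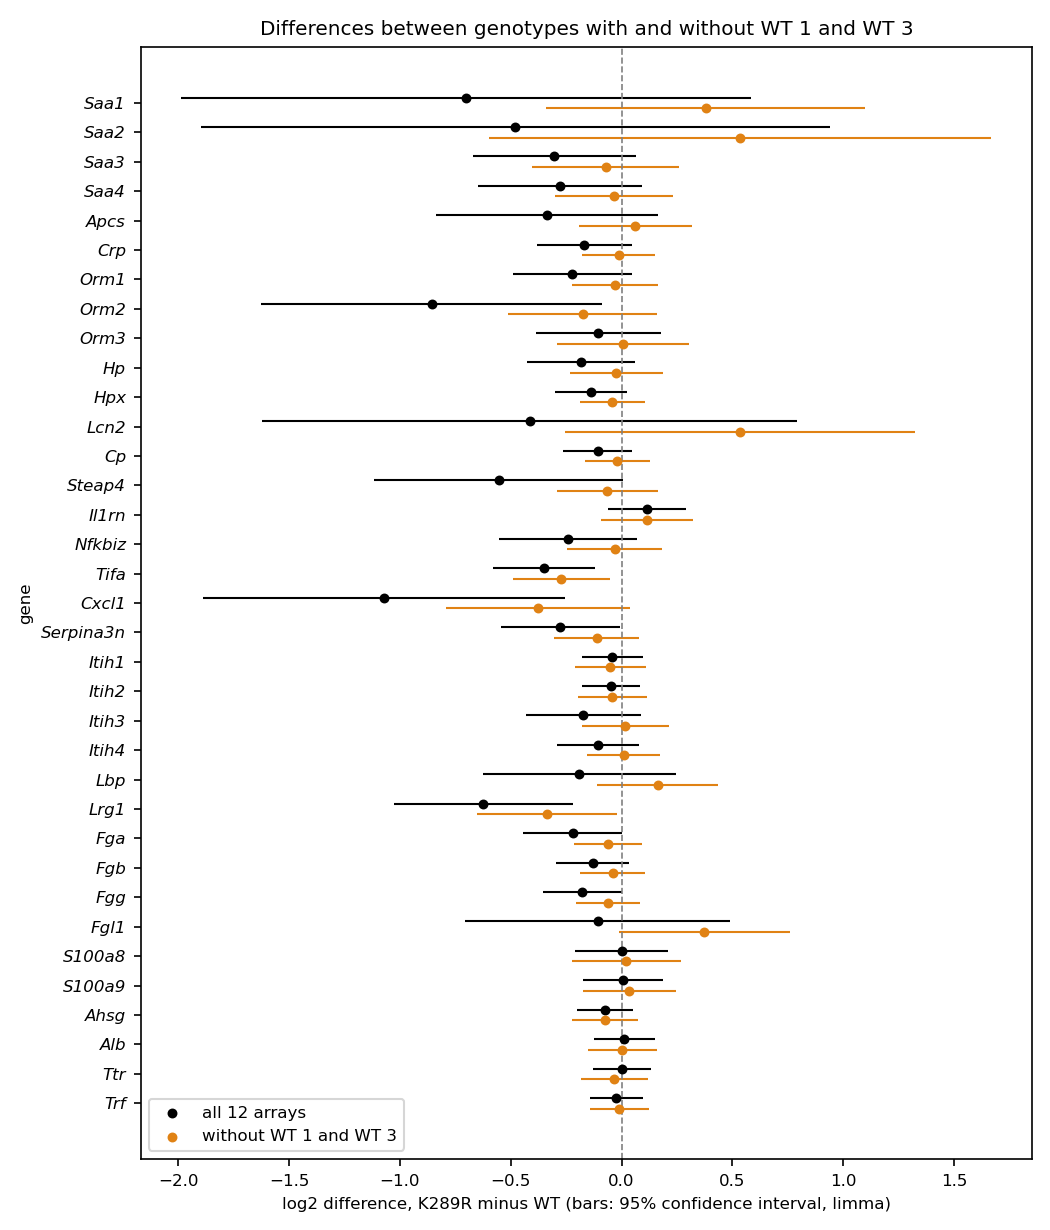
Log2 difference, K289R minus WT, of each of the 35 members with its 95% confidence interval from limma, for all 12 arrays (black) and without WT 1 and WT 3 (orange). With all arrays 30 points lie below 0, and without WT 1 and WT 3 the points of Saa1, Saa2, Lcn2, Lbp and Fgl1 lie above 0. High arrays were left out of WT only. K289R 4, the highest K289R array for Saa1, Saa2, Lcn2 and Fgl1, was kept.

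The serum amyloid A genes encode small apolipoproteins of high-density lipoprotein, of which Saa1 and Saa2 are the main acute phase forms of mouse liver. Saa1 measured 6.38, 9.15 and 28.3 in K289R livers (lowest, median and highest of 6) and 7.53, 8.88 and 96.1 in WT livers. Only WT 1 (96.1), WT 3 (62.9) and K289R 4 (28.3) reached their array's median intensity, so the other 9 values are not told from background. Its log2 difference was -0.70 (95% CI -1.99 to 0.59, adjusted p = 0.662 by limma), and 0.38 (-0.34 to 1.10) without WT 1 and WT 3.

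Saa2 measured 19.8, 30.7 and 228 in K289R livers and 19.7, 36.1 and 254 in WT livers. Here the arrays WT 1 (246), WT 3 (254) and K289R 4 (228) were alike, K289R 3 was at 73.2, and the medians of the genotypes differed little. The log2 difference was -0.48 (95% CI -1.90 to 0.94, limma adjusted p = 0.803), and 0.54 (-0.60 to 1.67) without WT 1 and WT 3. Saa3, an acute phase form made largely by macrophages and fat, ranged from 19.9 to 40.9 in K289R livers and from 27.9 to 52.7 in WT livers. Saa4, the constitutive form of the family, ranged from 742 to 1086 in K289R livers and from 787 to 1894 in WT livers, and WT 1 was the highest array. Saa3 and Saa4 had log2 differences of -0.30 and -0.28 (adjusted p = 0.505 and 0.539 by limma). Saa2 and Saa3 each lay below the array's median intensity on 3 arrays. Their lowest values are not told from background.

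The pentraxins bind bacterial and nuclear debris, and serum amyloid P (Apcs) is the main acute phase pentraxin of the mouse. Apcs measured 446, 502 and 555 in K289R livers and 366, 553 and 1458 in WT livers (lowest, median and highest of 6). The highest value was on WT 3, WT 1 was next at 813, and the K289R values lay inside the WT range. Crp, the C-reactive protein gene, ranged from 1244 to 1409 in K289R livers and from 1220 to 1865 in WT livers. Their log2 differences were -0.34 for Apcs (95% CI -0.84 to 0.17, limma adjusted p = 0.582) and -0.17 for Crp (limma adjusted p = 0.520), and without WT 1 and WT 3 they were 0.06 for Apcs and -0.01 for Crp.

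Orosomucoids, or alpha-1-acid glycoproteins, bind drugs and lipids in plasma. Orm2 measured 99.8, 123 and 192 in K289R livers and 120, 164 and 660 in WT livers. WT 1 (547) and WT 3 (660) stood apart, and the other 4 WT arrays, from 120 to 175, lay within the K289R range. Its log2 difference was -0.86 (95% CI -1.63 to -0.09, limma adjusted p = 0.365), and -0.17 (-0.51 to 0.16) without WT 1 and WT 3. Orm1 ranged from 1752 to 2373 in K289R livers and from 2018 to 3616 in WT livers, with a log2 difference of -0.22 (adjusted p = 0.505 by limma). Orm3 stayed below its array's median intensity on all 12 arrays, at 14.1 to 22.5 in K289R livers and 14.8 to 25.5 in WT livers, and is not told from background.

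Among genes of heme and metal handling, the iron-scavenging lipocalin gene Lcn2 had the widest range of all members. Lcn2 measured 68.7, 126 and 276 in K289R livers and 53.0, 128 and 920 in WT livers. WT 3 (920) and WT 1 (487) were highest, K289R 4 (276) and K289R 3 (243) followed, and the lowest value of all 12 was on WT 5. The log2 difference was -0.41 (95% CI -1.62 to 0.79, limma adjusted p = 0.799), and 0.54 (-0.25 to 1.32) without WT 1 and WT 3.

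Steap4, a metalloreductase that inflammatory cytokines induce, measured 361, 459 and 541 in K289R livers and 422, 520 and 1610 in WT livers. WT 1 (1610) and WT 3 (1078) were again apart from the other 4 WT arrays, which ran from 422 to 561. Its log2 difference was -0.55 (95% CI -1.12 to 0.01, limma adjusted p = 0.419), and -0.06 (-0.29 to 0.16) without WT 1 and WT 3. Haptoglobin (Hp), which binds free hemoglobin, ranged from 3106 to 3761 in K289R livers and from 3082 to 4990 in WT livers. Hemopexin (Hpx), which binds free heme, ranged from 4382 to 4807 in K289R livers and from 4446 to 6103 in WT livers. Ceruloplasmin (Cp), a copper-carrying ferroxidase, ranged from 2118 to 2363 in K289R livers and from 2095 to 2741 in WT livers. For these 3 genes WT 3 was the highest array, and the log2 differences were -0.18, -0.14 and -0.11 (adjusted p = 0.538, 0.497 and 0.567 by limma).

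**Figure D4:**
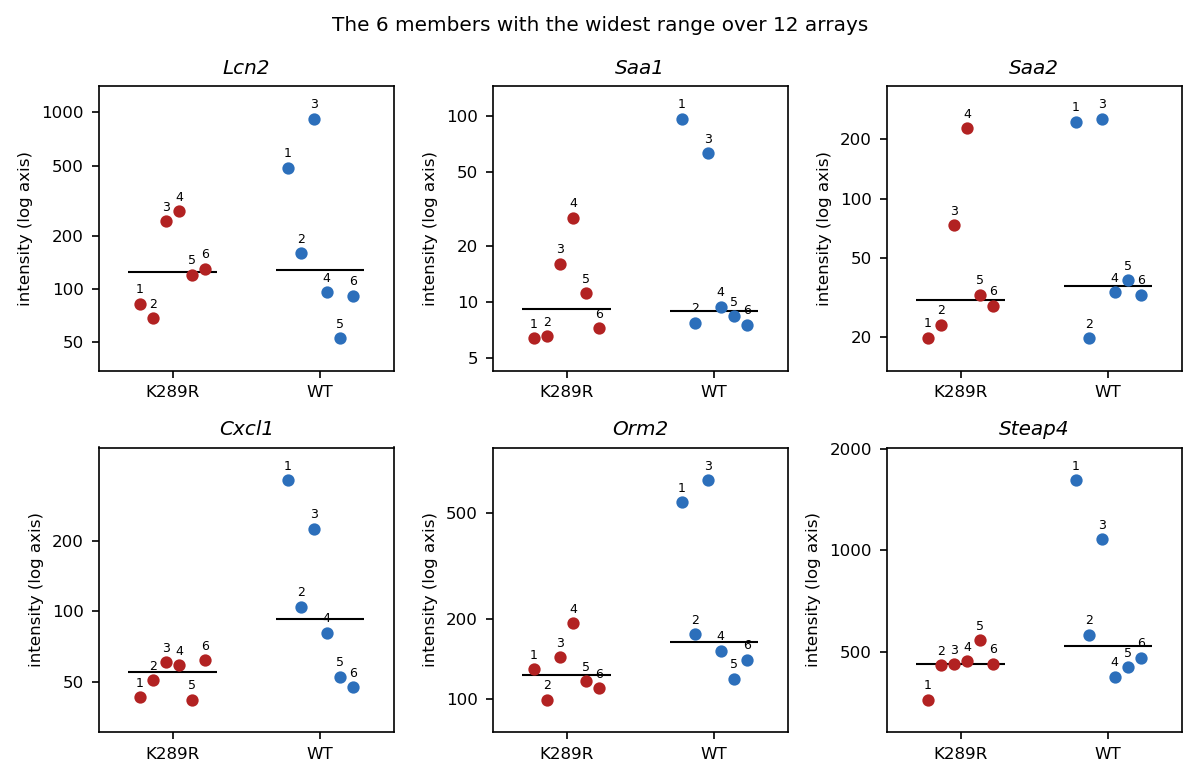
Intensity on a log axis of the 6 members with the widest range, with K289R arrays (red) left of WT arrays (blue), the replicate number above each point and a line at each group's median. WT 1 and WT 3 are the highest arrays of each gene, and K289R 4 reaches 228 for Saa2, near their 246 and 254.

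Genes of interleukin-1 and NF-kB signalling held the largest difference of the list. Cxcl1, a chemokine that attracts neutrophils, measured 41.9, 54.7 and 61.5 in K289R livers and 47.3, 92.5 and 362 in WT livers. All 6 K289R values lay within a narrow range, 4 WT arrays (WT 1 at 362, WT 3 at 225, WT 2 at 104 and WT 4 at 80.7) lay above all of them, and WT 5 and WT 6 lay among them. Its log2 difference was -1.07 (95% CI -1.89 to -0.25, limma adjusted p = 0.277), and -0.38 (-0.79 to 0.04) without WT 1 and WT 3.

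Tifa, an adaptor that links TRAF6 to NF-kB activation, measured 20.7, 22.9 and 30.9 in K289R livers and 27.1, 28.6 and 40.6 in WT livers. K289R 5 was the only array of its group above the lowest WT array, and the values lie around the array medians, which limits what they show. The log2 difference was -0.35 (95% CI -0.58 to -0.12, limma adjusted p = 0.192) and -0.27 (-0.49 to -0.05) without WT 1 and WT 3. Nfkbiz, a nuclear cofactor of NF-kB, ranged from 33.3 to 47.8 in K289R livers and from 39.2 to 82.1 in WT livers. Its highest value was on WT 1, and the log2 difference was -0.24 (limma adjusted p = 0.526). Il1rn encodes the interleukin-1 receptor antagonist, described in other work as an LRH-1 target, and was among the few members with a positive log2 difference. Its intensity ranged from 29.1 to 36.6 in K289R livers and from 24.5 to 32.4 in WT livers, with a log2 difference of 0.11 (95% CI -0.06 to 0.29, limma adjusted p = 0.598). The Il1rn values lie near the array medians, and 1 array was below its median, which limits what they show.

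Serpina3n, an inhibitor of serine proteases such as granzyme B, measured 1880, 2082 and 2450 in K289R livers and 2121, 2422 and 4009 in WT livers. WT 3 stood apart at 4009, whereas the other 5 WT arrays reached at most 2655. The log2 difference was -0.28 (95% CI -0.55 to -0.01, limma adjusted p = 0.400), and -0.11 (-0.30 to 0.08) without WT 1 and WT 3. The genes of the inter-alpha-trypsin inhibitor heavy chains were split. Itih3 ranged from 1679 to 2034 in K289R livers and from 1620 to 2814 in WT livers, and Itih4 from 2684 to 3424 in K289R livers and from 2834 to 3873 in WT livers, both highest on WT 3. Itih1 ranged from 1148 to 1359 in K289R livers and from 1187 to 1368 in WT livers, and Itih2 from 2447 to 2929 in K289R livers and from 2573 to 2864 in WT livers, with neither highest on WT 1 or WT 3. The log2 differences of Itih1, Itih2, Itih3 and Itih4 ran from -0.17 to -0.04, and none passed (adjusted p = 0.584 to 0.822, limma).

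Lrg1, a secreted leucine-rich glycoprotein that modulates TGF-beta signalling, had the smallest limma p among the members, whereas Tifa had the smallest p by the exact permutation test (0.0173, against 0.0216 for Lrg1, both unadjusted and two-sided). Its intensity was 996, 1122 and 1729 in K289R livers and 1272, 1697 and 2991 in WT livers (lowest, median and highest of 6). WT 3 (2991), WT 1 (2548) and WT 2 (1914) lay above all K289R arrays, and 4 K289R arrays lay below all WT arrays. The log2 difference was -0.62 (95% CI -1.03 to -0.22, limma adjusted p = 0.184), and -0.34 (-0.65 to -0.02, adjusted p = 0.447) without WT 1 and WT 3. Lbp, which carries bacterial lipopolysaccharide to CD14, ranged from 621 to 914 in K289R livers and from 570 to 1428 in WT livers. Its highest values were on WT 1 and WT 3, its lowest on WT 6, and its log2 difference was -0.19 (limma adjusted p = 0.733) and 0.16 without WT 1 and WT 3.

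The 3 fibrinogen chains, whose genes are consecutive and whose product forms the clot, differed between arrays together. Fga measured 1349, 1384 and 1579 in K289R livers and 1424, 1526 and 2310 in WT livers. Fgb ranged from 3357 to 3646 in K289R livers and from 3401 to 4748 in WT livers, and Fgg from 4128 to 4555 in K289R livers and from 4206 to 6128 in WT livers. WT 1 and WT 3 were the highest arrays for all 3 chains, and the log2 differences were -0.22, -0.13 and -0.18 (adjusted p = 0.418, 0.513 and 0.415 by limma). A second, dimmer Fga probe set had a log2 difference of -0.28 (limma adjusted p = 0.365). Fgl1, a fibrinogen-like protein secreted by hepatocytes, measured 656, 705 and 1096 in K289R livers and 448, 748 and 1666 in WT livers. Its WT values split more widely than its K289R values, with WT 3 (1666), WT 1 (1574) and WT 2 (911) high and WT 5 (448) lowest. The log2 difference was -0.11 (95% CI -0.70 to 0.49, limma adjusted p = 0.903), and 0.37 (-0.01 to 0.76) without WT 1 and WT 3.

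The calgranulins S100a8 and S100a9, calcium-binding proteins stored in neutrophils, were not told from background. Both stayed below their array's median intensity on all 12 arrays. S100a8 ranged from 7.03 to 9.78 in K289R livers and from 7.42 to 9.998 in WT livers, and S100a9 from 17.8 to 23.3 in K289R livers and from 18.7 to 24.3 in WT livers. Of 12 other neutrophil markers, 10 were also below the array median on all 12 arrays, and their summed intensity ran from 168 to 190 in K289R livers and from 171 to 203 in WT livers.

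The intensities of the 4 negative acute phase genes hardly varied between arrays. They lie at the upper end of the members' intensities. Whether intensity still follows RNA amount there was not tested, which limits what the small variation shows. Ahsg (fetuin-A, an inhibitor of calcification) ranged from 5218 to 6146 in K289R livers and from 5748 to 6135 in WT livers, and Alb (albumin) from 6692 to 7982 in K289R livers and from 6644 to 7678 in WT livers. Ttr (transthyretin, a carrier of thyroid hormone and retinol-binding protein) ranged from 5236 to 6059 in K289R livers and from 5177 to 5881 in WT livers, and Trf (transferrin, the plasma iron carrier) from 6040 to 6387 in K289R livers and from 6080 to 6833 in WT livers. Their log2 differences ran from -0.07 to 0.01, with adjusted p from 0.635 to 0.991 by limma. Trf was highest on WT 3, and the other 3 were highest on a K289R array.

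The spread between mice was wider in WT than in K289R livers for most members. The SD of log2 intensity over 6 arrays was larger in WT for 29 of 35 members (82.9%), against 49.8% of all genes. For Apcs it was 0.12 in K289R livers and 0.71 in WT livers, for Steap4 0.19 in K289R livers and 0.79 in WT livers, and for Cxcl1 0.25 in K289R livers and 1.17 in WT livers. Saa2 had a wide spread in both genotypes, 1.34 in K289R livers and 1.61 in WT livers. Without WT 1 and WT 3 the SD was larger in WT for 15 of 35 members (42.9%), against 41.9% of all genes. As WT 1 and WT 3 were chosen for their high values on these members, leaving them out narrows the WT spread by design. That count describes the remaining arrays and tests nothing.

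**Figure D5:**
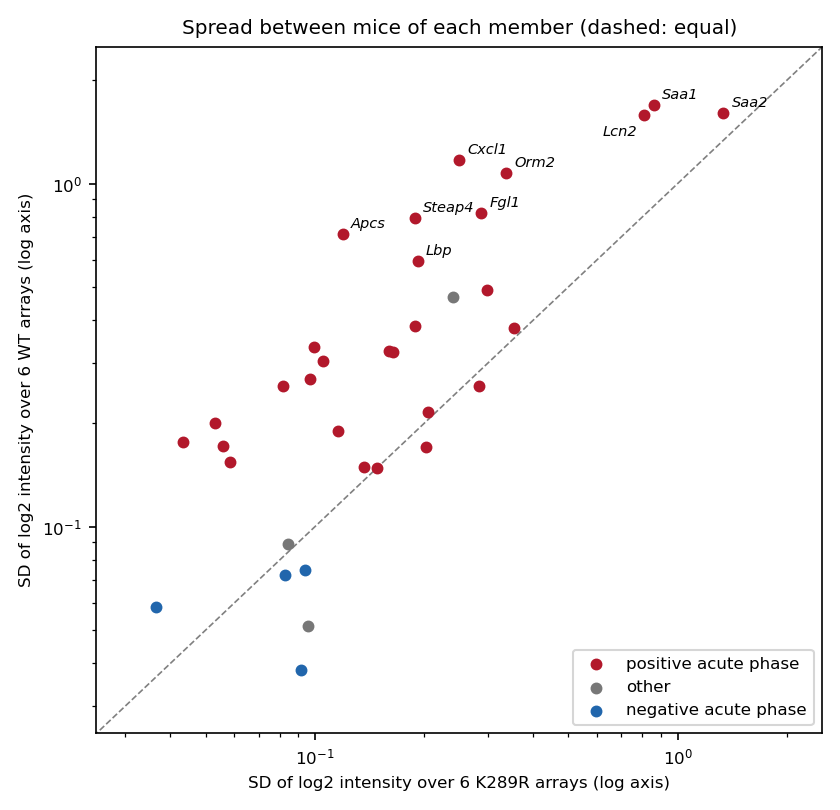
SD of log2 intensity over the 6 K289R arrays (x, log axis) against the 6 WT arrays (y, log axis) for each of the 35 members, with a dashed line where both are equal. Points lie above the line for 29 members, and Apcs, Steap4, Cxcl1 and Orm2 lie farthest above it among the labelled genes.

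Within the K289R group, K289R 4 was the highest array for 14 of the 35 members (40.0%), against 16.5% of all genes. K289R 5 was the highest of the group for 11 members (31.4%), and its share of all genes was not computed. Markers of Kupffer cells, the macrophages of the liver, were also high on K289R 4. All 11 measured Kupffer and macrophage markers were highest on K289R 4 among the K289R arrays, and their summed intensity was 2237 there, in a range from 1178 to 2237 in K289R livers and from 1070 to 1730 in WT livers. The sum on WT 3 (1070) was the lowest of the WT arrays, and that on WT 1 (1369) was close to that on WT 4 (1374). Skeletal muscle markers summed to 2552 on WT 1 and 1019 on K289R 3, in ranges from 333 to 1019 in K289R livers and from 392 to 2552 in WT livers. On WT 3 the muscle markers summed to 429, and the median log2 deviation of the 28 positive members was 0.57 there and 0.52 on WT 1. Single members differed between these arrays, as Cxcl1 (225 on WT 3 and 362 on WT 1) and Apcs (1458 on WT 3 and 813 on WT 1) show. Pancreatic acinar markers summed to 6473 on K289R 1 and 10356 on K289R 3, in a range from 250 to 10356 in K289R livers and from 270 to 316 in WT livers. The part of Kupffer cell, muscle or acinar transcripts in the members' values was not tested. Hepatocyte markers summed to 32369 to 34764 in K289R livers and 32501 to 34154 in WT livers, and no gene of the hepatocyte, Kupffer, neutrophil, acinar, muscle, stellate, endothelial or cholangiocyte marker lists was called.

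Other genes of the response were read from lists drawn up beside the members. Of 23 other acute phase genes measured, none was called, and the median log2 difference was -0.06. Hamp, which encodes the iron hormone hepcidin, came nearest. It measured 1231, 1805 and 2808 in K289R livers and 2245, 2956 and 3127 in WT livers, and 5 of the 6 K289R arrays lay below all WT arrays, K289R 1 being the exception. Its log2 difference was -0.66 (95% CI -0.99 to -0.34, limma adjusted p = 0.0637). The limma adjusted p was 0.199 without WT 1 and WT 3 and 0.00365 without K289R 1 and K289R 3. That last fit, chosen after the data were seen, drops K289R 1, which by itself lowers the p of Hamp. WT 1 and WT 3 were not apart from the other WT arrays for Hamp, at 3069 and 2839. Vnn1, a pantetheinase, had the next smallest p, with a log2 difference of 0.74 (limma adjusted p = 0.173).

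Among 13 other negative acute phase genes none was called, and the median log2 difference was -0.03. Apoa4, an apolipoprotein, ranged from 1521 to 2757 in K289R livers and from 1835 to 3575 in WT livers, with a log2 difference of -0.54 (limma adjusted p = 0.193). Serpina6, the corticosteroid-binding globulin of plasma, ranged from 1184 to 1917 in K289R livers and from 411 to 1812 in WT livers, with the lowest value on WT 3 and a log2 difference of 0.59 (limma adjusted p = 0.401).

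Of 38 measured genes of interleukin-6, interleukin-1, TNF and NF-kB signalling, 1 fell and none rose, with a median log2 difference of -0.01. Over all genes 0.572% were called in either direction and 0.0903% were called lower. The gene that fell was Socs3, the feedback inhibitor of interleukin-6 signalling, at 32.8, 43.8 and 45.0 in K289R livers and 50.6, 58.4 and 72.1 in WT livers (lowest, median and highest), so that its groups did not overlap. Its log2 difference was -0.51 (95% CI -0.72 to -0.31, limma adjusted p = 0.0184), with adjusted p values of 0.102 without WT 1 and WT 3 and 0.0730 without K289R 1 and K289R 3. The K289R values of Socs3 lie not far above the array medians, which ran from 26.8 to 29.2. Among 14 measured genes of LRH-1, its corepressors and the SUMO pathway none was called, and the median log2 difference was 0.08. The smallest p values belonged to the corepressor subunits Hdac3 (log2 difference 0.22, limma adjusted p = 0.199) and Tbl1xr1 (0.26, limma adjusted p = 0.309).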

How the data were processed

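Liver RNA of 12 mice was measured on Affymetrix gene arrays. The deposited values are linear summarized intensities, made with Affymetrix Expression Console per the submitters' processing notes; for its version, summarization and normalization: not given in the sources used here. Array medians ran from 26.8 to 29.2, and the number of arrays limits the precision.

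Log2 was taken without a pseudocount. Rows with 1 gene symbol (21789 of 35556) gave 19938 genes, each represented by its probe set with the highest mean log2. K289R was compared with WT by limma 3.58.1 (R 4.3.3; lmFit, eBayes) over all genes, two-sided, with Benjamini-Hochberg adjustment and a threshold of 0.05. Alternatives were an exact permutation test over arrays, other scalings, a pseudocount, a filter on dim genes, probe-set means, other eBayes settings, array weights, a replicate block, each array left out and, chosen after the data were seen, WT 1 and WT 3 or K289R 1 and K289R 3 left out. WT 1 and WT 3 were chosen on these same genes. The limma p-values set the difference between the groups against the spread between these mice, with each gene's variance moderated over all genes. All members are named, and from each further list the called genes or, with none, the 2 with the smallest p. The members and lists were chosen with earlier results of these data known. Because arrays with the same number come from different mice, number was not a block in the comparison. Promoters were taken from RefSeq (GRCm38.p6), and the LRH-1 letters were narrowed to the given forms after a first search was seen. Figures were drawn with matplotlib 3.10.9.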

Additional observations from a re-analysis of the deposited data

Results flagged for a closer look

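Of 70 sets of 6 arrays (35 members in 2 genotypes), 3 held an array far from the other 5 of its group on the log2 scale by Dixon's criterion, which chance gives for about 1 in 20 sets. Serpina3n measured 4009 on WT 3, and its remaining WT values ran from 2121 to 2655. Trf measured 6833 on WT 3, with 6080 to 6352 elsewhere in the group. Il1rn measured 24.5 on WT 4, the lowest, whereas the rest lay between 29.9 and 32.4. The criterion looks for a single distant array, so pairs such as WT 1 and WT 3 for Saa1 or Orm2 are not picked out by it.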

How the results depend on the processing

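No member was called under any of the 22 alternatives of the limma fit, and the median log2 difference of the 28 positive members, -0.21, lay between -0.27 and -0.10 when 1 array was left out and at -0.02 without WT 1 and WT 3, arrays left out after the data were examined. The count of changed genes over the whole array was 114, ran from 81 to 159 when 1 array was left out, and was 75 without K289R 1 and K289R 3. With the replicate number as a block it was 111, again with 0 members. Same-numbered arrays had correlations of deviations from -0.23 to 0.23, so the numbers were not taken to pair mice. Differences of uncalled members changed sign as follows. Without WT 1 and WT 3 the log2 differences were 0.38 for Saa1, 0.54 for Saa2, 0.061 for Apcs, 0.0073 for Orm3, 0.54 for Lcn2, 0.017 for Itih3, 0.0091 for Itih4, 0.16 for Lbp, 0.37 for Fgl1 and -0.032 for Ttr. High arrays were left out of WT only there. K289R 4, the highest K289R array for Saa1, Saa2, Lcn2 and Fgl1, was kept. The cause was not tested beyond the arrays left out. Without K289R 1 and K289R 3 the log2 differences were -0.049 for S100a8 and -0.022 for Ttr. With array weights they were 0.0088 for Fgl1 and -0.0037 for Ttr, and with equal array medians 0.014 for Trf. Leaving out 1 array gave -0.77 to 0.057 for Lcn2, -0.29 to 0.093 for Fgl1, -0.050 to 0.058 for S100a8, -0.027 to 0.054 for S100a9, -0.020 to 0.037 for Alb and -0.024 to 0.021 for Ttr. Leaving out dim genes removed 5 members (Saa1, Orm3, Tifa, S100a8 and S100a9). Dim signal limits Saa1, Orm3, Tifa and the calgranulins. It limits Saa2, Saa3 and Il1rn less, which lay below the array median on 3, 3 and 1 of the 12 arrays.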

Other observations

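The pattern of the acute phase members, with WT 1 and WT 3 above all the other 10 arrays, was present in 683 of the 19938 genes, 24 of them members. Among genes that are not members, those with the widest gap to the next array included the metal-binding metallothioneins Mt1 and Mt2, which glucocorticoids and cytokines also induce. Mt1 measured 699 on WT 1 and 2038 on WT 3, against 110.2 to 169 in K289R livers and 92.5 to 132 on the other 4 WT arrays. Mt1, Mt2 and Serpina10 are on the list of other acute phase genes. Serpina10, the protein Z-dependent protease inhibitor, measured 915 on WT 1 and 1040 on WT 3, against 490.7 to 568.0 in K289R livers and 473 to 583 on the other 4 WT arrays. Syvn1, a ubiquitin ligase of the endoplasmic reticulum, measured 604 on WT 1 and 765 on WT 3, against 273 to 362 in K289R livers and 308 to 416 on the other 4 WT arrays. Acnat2, an acyl-CoA amino acid transferase, measured 398 and 430 on WT 1 and WT 3, against 129 to 218 in K289R livers and 161 to 267 on the other 4 WT arrays. Slc30a5, a zinc transporter of the secretory pathway, measured 250 and 233 on WT 1 and WT 3, against 130 to 163 in K289R livers and 128 to 151 on the other 4 WT arrays. These genes were picked by their values on these arrays, so the values are a description.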
